A study of Mus musculus with 6 samples.

Results

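Spi1, Cebpa, Cebpb, Irf8, Irf5, Pparg and Klf4 encode transcription factors that build or mark the myeloid lineage, the branch of blood cells that gives monocytes, macrophages, dendritic cells and granulocytes. They were taken by name from the 55951 genes of the deposited expression table, and each of the 7 symbols matched 1 row. The RNA came from CD8+ effector-memory T cells sorted from the spleens of C57BL/6 mice of the genotype S100A4-EGFP with asthma induced by OVA. The gate was CD3+, CD8+, CD4-, CD44+ and CD62L-, and the cells were divided by the reporter into an S100A4-positive group (EGFP+) and an S100A4-negative group (EGFP-), with 3 libraries each. Both groups carry the reporter and come from the asthma model, and no group from healthy mice or outside the gate was analysed here. The labels do not say whether the libraries came from separate animals or pools, so p-values measure only the spread between these libraries.

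Spi1 encodes PU.1, an ETS factor that macrophages require and that B cells use at a lower dose. CEBPA and CEBPB are leucine zipper proteins that drive the granulocyte and monocyte programme together with PU.1. IRF8 binds DNA with PU.1 and directs monocytes, dendritic cells and part of the B cell programme, whereas IRF5 switches on inflammatory cytokines after Toll-like receptor signals. PPAR-gamma is a lipid-sensing nuclear receptor of adipocytes and of some tissue macrophages, and KLF4 promotes monocyte differentiation. T cells normally hold most of these genes at low levels.

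In S100A4-positive libraries 6 of the 7 genes rose, by 3.08-fold for Klf4 to 83.6-fold for Pparg in mean FPKM, and Irf8 did not pass the test. Of all 13241 genes tested, 62.3% were called, 19.0% higher and 43.4% lower. In the same 6 genes no S100A4-positive library overlapped an S100A4-negative one, while 70.0% of the genes tested did not overlap, 20.9% being higher and 49.1% lower. Levels are FPKM as deposited, a value scaled by the length of the gene model and by sequencing depth. Each log2 fold change is the S100A4-positive mean of log2(FPKM + 1) less the S100A4-negative mean, and genes are called where limma's p, adjusted over all genes tested, is under 0.05.

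Libraries held 14925260 to 18660188 reads. S100a4 itself, the gene the reporter follows, had 9, 25 and 11 reads in S100A4-positive libraries and 0, 3 and 1 in S100A4-negative ones. Cd8a, the defining gene of the gate, had 13.6, 22.4 and 31.9 FPKM in S100A4-positive libraries, against 187, 85.2 and 139 FPKM in S100A4-negative libraries. Genes of the T cell gate were detected in every library, but 10 of 12 were lower in S100A4-positive libraries, 1 was higher and 1 was not called. Their summed level was 791 to 1058 FPKM in S100A4-positive and 2122 to 2592 FPKM in S100A4-negative libraries. Of 19 monocyte and macrophage markers, which the gate would exclude, 18 were higher and none lower. Their summed level was 5611 to 6434 FPKM in S100A4-positive and 566 to 711 FPKM in S100A4-negative libraries, and none was at 0 in any library. In bulk RNA a different number of cells of a type and a different amount of RNA per cell cannot be told apart. The part of these marker genes in the results on the 7 factors was not tested.

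**Figure D1:**
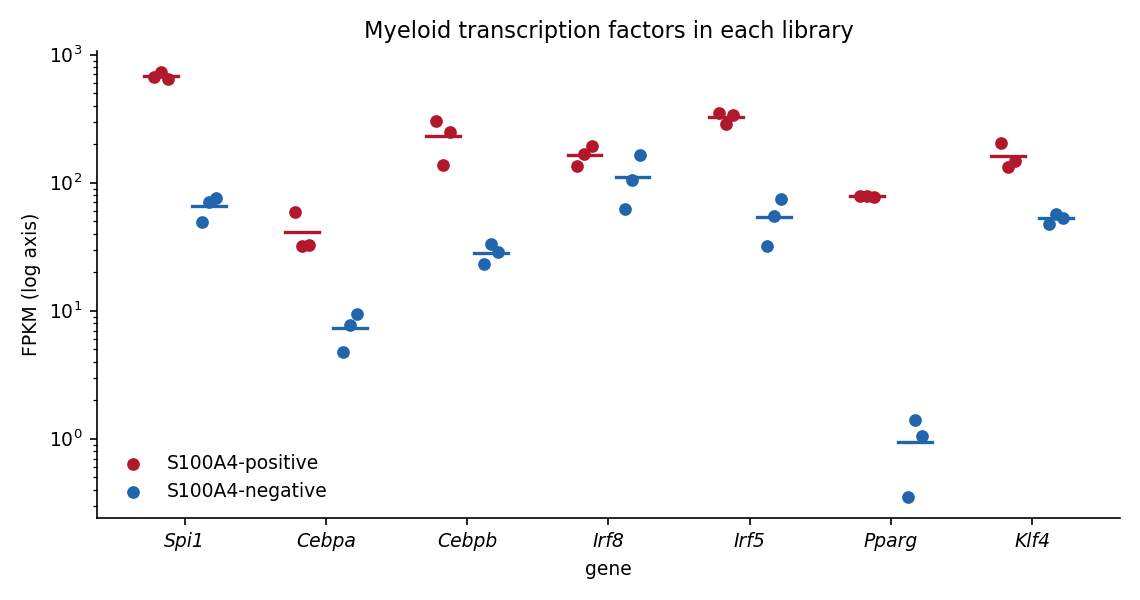
FPKM on a log axis for each of the 7 genes, with 3 S100A4-positive libraries (red) left of 3 S100A4-negative libraries (blue) and a line at each mean. The groups are apart for all genes but Irf8, whose S100A4-negative replicate 3 lies at 166 FPKM, between S100A4-positive replicates 1 and 3 at 134 and 193 FPKM.

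Spi1 had the highest mean RNA level of the 7 genes in S100A4-positive libraries. Spi1 (ENSMUSG00000002111, chromosome 2, 91082390 to 91115756 of GRCm38, + strand) had 669, 732 and 646 FPKM in S100A4-positive libraries, against 49.5, 70.9 and 75.6 FPKM in S100A4-negative libraries. Every S100A4-positive library was therefore far above every S100A4-negative one, and the replicates of the S100A4-positive group lay close together. The log2 fold change was 3.39 (SE 0.18, adjusted p = 1.84e-05), and the mean was 10.5-fold higher. By mean level Spi1 stood at place 126 of the 55951 genes in S100A4-positive libraries and at place 2153 in S100A4-negative libraries. The counts behind it were 9813 to 10184 reads in S100A4-positive and 755 to 1266 reads in S100A4-negative libraries.

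Cebpa and Cebpb rose with it and varied more among replicates. Cebpa (chromosome 7, 35119293 to 35121928, + strand) had 58.5, 32.0 and 32.8 FPKM in S100A4-positive libraries, against 4.75, 7.78 and 9.40 FPKM in S100A4-negative libraries. S100A4-positive replicate 1 was the high one, and the lowest S100A4-positive value was still above the highest S100A4-negative value. The log2 fold change was 2.33 (SE 0.30, adjusted p = 5.96e-04). Cebpb (chromosome 2, 167688915 to 167690418, + strand) had 304, 137 and 250 FPKM in S100A4-positive libraries, against 23.3, 33.1 and 28.8 FPKM in S100A4-negative libraries. Here S100A4-positive replicate 2 was the low one, and the groups were again apart. The log2 fold change was 2.91 (SE 0.29, adjusted p = 2.09e-04). Cebpb shares 20.7% of its exon bases with Tmem189 on the other strand, and the strand setting of the counting is not given in the sources used here, so reads of the 2 genes could be mixed. Tmem189 itself was at 74.7 ± 25.9 FPKM in S100A4-positive and 34.2 ± 2.03 FPKM in S100A4-negative libraries (SD, n = 3). S100A4-positive replicate 1, the high library for Cebpa, Cebpb and Klf4, also had the highest summed level of 14 neutrophil markers within its group, 2095 FPKM against 693 and 561 FPKM in replicates 2 and 3. That sum was 3636 to 5435 FPKM in S100A4-negative libraries. Within the S100A4-positive group the sum of 19 monocyte and macrophage markers was also highest in replicate 1. It was 6434 FPKM there, against 5611 and 5643 FPKM in replicates 2 and 3. In S100A4-negative libraries the macrophage sum was 566 to 711 FPKM. The part of either sum in these values was not tested.

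The interferon regulatory factors differed from each other. Irf5 (chromosome 6, 29526625 to 29541871, + strand) had 349, 287 and 338 FPKM in S100A4-positive libraries, against 32.1, 55.3 and 74.4 FPKM in S100A4-negative libraries. It rose by 2.64 (SE 0.28, adjusted p = 2.74e-04), or 6.01-fold in mean FPKM. Of its exon bases 14.1% also belong to Tnpo3 on the other strand, which had a log2 fold change of -0.44. Irf8 (chromosome 8, 120736358 to 120756694, + strand) had 134, 167 and 193 FPKM in S100A4-positive libraries, against 62.4, 105 and 166 FPKM in S100A4-negative libraries. The groups overlapped, since S100A4-negative replicate 3 lay between S100A4-positive replicates 1 and 3. The log2 fold change was 0.66 (95% interval -0.12 to 1.43, adjusted p = 0.119), and the exact two-sided permutation test gave p = 0.2, where 3 against 3 allows no less than 0.1.

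Irf8 depended on single S100A4-negative libraries, on scaling and on whether replicate numbers were taken as pairs. The labels give no pairing, and with the replicate number as a block in limma Irf8 had a log2 fold change of 0.66 (adjusted p = 0.0231). Without S100A4-negative replicate 3 its log2 fold change was 1.00 (adjusted p = 0.0210), and without S100A4-negative replicate 1 it was 0.30 (adjusted p = 0.319). After median-of-ratios rescaling, which moved the median of all genes to -0.03, against -0.36 as deposited, Irf8 stood at 1.03 (adjusted p = 0.0308). The authors' deposited table lists all 7 factors as significant and gives Irf8 a log2 fold change of 0.97 with an adjusted p of 0.0217. Markers of other cell types that use Irf8 differed between the groups too. Of 13 B cell markers 10 were lower and none higher (6 lower without S100A4-positive replicate 2, and 5 lower without S100A4-negative replicate 2 or after median-of-ratios rescaling), with a summed level of 1666 to 1683 FPKM in S100A4-positive and 7279 to 12813 FPKM in S100A4-negative libraries. Of 13 dendritic cell markers 11 were higher and none lower, with sums of 1480 to 2250 FPKM in S100A4-positive and 488 to 619 FPKM in S100A4-negative libraries. No marker of either list was at 0 in any library, and their part in the Irf8 values was not tested.

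**Figure D2:**
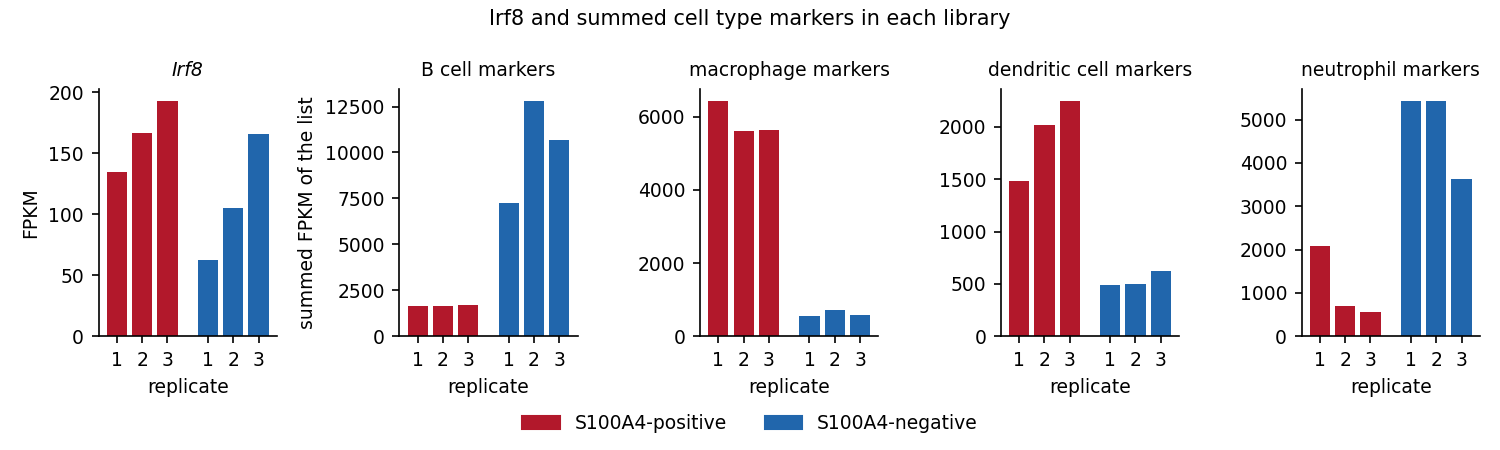
Bars from 0 give Irf8 in FPKM and the summed FPKM of 4 marker lists in each library, with S100A4-positive replicates 1 to 3 (red) left of S100A4-negative replicates 1 to 3 (blue). B cell markers reached at most 1683 FPKM in S100A4-positive libraries and at least 7279 FPKM in S100A4-negative ones, while macrophage and dendritic cell markers were higher in every S100A4-positive library.

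Pparg had the largest fold change of the 7, and its S100A4-positive libraries lay close together. It (ENSMUSG00000000440, chromosome 6, 115360951 to 115490399, + strand) had 79.1, 78.6 and 76.8 FPKM in S100A4-positive libraries, against 0.353, 1.40 and 1.06 FPKM in S100A4-negative libraries. The S100A4-negative values rest on 7, 29 and 23 reads, so their counting error is large, while the S100A4-positive values rest on 1370 to 1565 reads. The log2 fold change was 5.39 (SE 0.21, adjusted p = 8.72e-06), place 15 among the 13241 genes tested. Since adding 1 to FPKM shrinks the change of low genes, the same difference was 6.41 with 0.1 added and 6.54 with voom on recovered reads.

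Klf4 rose least among the 6. It (chromosome 4, 55527143 to 55532466, - strand) had 206, 134 and 146 FPKM in S100A4-positive libraries, against 47.6, 57.4 and 52.5 FPKM in S100A4-negative libraries. Its S100A4-negative libraries lay close together, and the lowest S100A4-positive library was above all of them. The log2 fold change was 1.59 (SE 0.18, adjusted p = 3.41e-04). For each of these 6 genes the exact two-sided permutation test gave p = 0.1, the smallest that 3 against 3 allows.

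**Figure D3:**
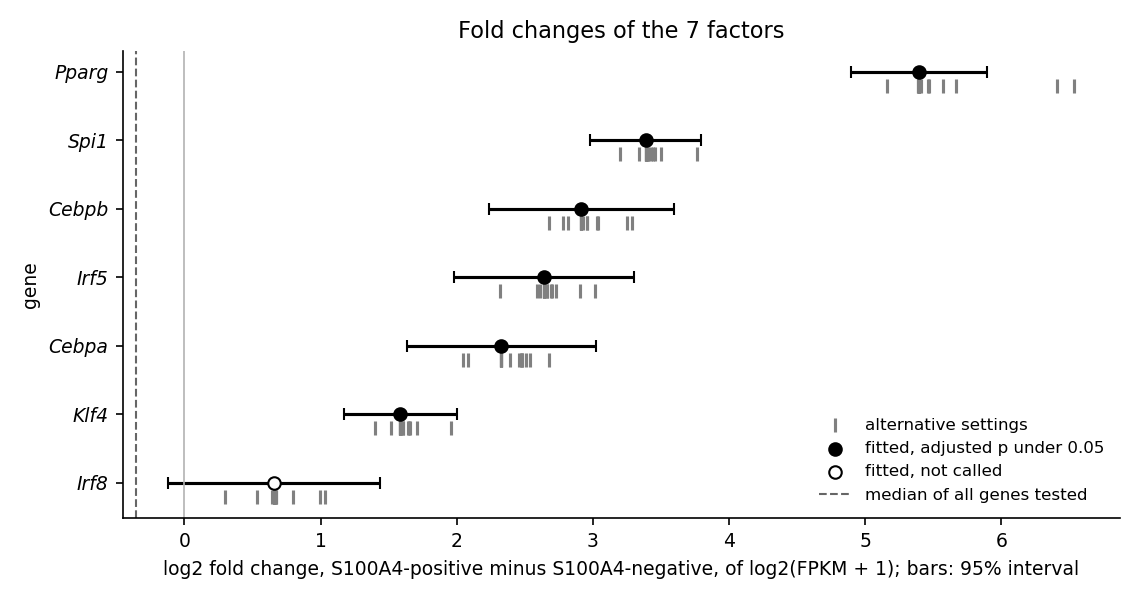
Fitted log2 fold changes (S100A4-positive minus S100A4-negative, of FPKM + 1) with 95% intervals, filled where called, above grey ticks for 14 alternative settings. The dashed line is the median of all genes tested, -0.36, and only the interval of Irf8 reaches 0.

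Promoter sequence is shown for genes whose RNA moved furthest, least, or without a call, as the stretch of 250 bases before an annotated RefSeq start on GRCm38.p6, read 5′ to 3′ on the gene's own strand. RefSeq windows were found for 6 of the 7 genes, 9 windows in all, and not for Spi1. Capitals mark any match on either strand to 6 short motifs, namely GAGGAA (the core that PU.1 binds), TTGCNNAA (the C/EBP core), GGAA and GAAA with 2 bases between (a joint ETS and IRF site), GAAA and GAAA with 2 bases between (the interferon response core), CCNCNCCC (a Kruppel-like site) and AGGTCA repeated with 1 base between (the repeat bound by PPAR with RXR). The PU.1 core and the joint site share GGAA, and neighbouring CCNCNCCC matches can overlap.
Pparg, start 2, chr6:115362099-115362348, + strand: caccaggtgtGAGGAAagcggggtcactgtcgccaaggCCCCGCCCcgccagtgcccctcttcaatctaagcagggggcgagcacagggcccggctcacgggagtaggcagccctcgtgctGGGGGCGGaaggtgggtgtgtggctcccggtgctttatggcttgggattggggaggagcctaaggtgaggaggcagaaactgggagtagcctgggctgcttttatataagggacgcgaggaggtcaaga
Pparg, start 3, chr6:115421816-115422065, + strand: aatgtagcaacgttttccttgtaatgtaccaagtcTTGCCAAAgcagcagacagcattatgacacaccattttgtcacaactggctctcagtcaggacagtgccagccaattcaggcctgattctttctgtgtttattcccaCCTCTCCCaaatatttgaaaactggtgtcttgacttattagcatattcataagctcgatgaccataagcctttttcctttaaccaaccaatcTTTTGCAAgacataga
Klf4, chr4:55532476-55532725, - strand: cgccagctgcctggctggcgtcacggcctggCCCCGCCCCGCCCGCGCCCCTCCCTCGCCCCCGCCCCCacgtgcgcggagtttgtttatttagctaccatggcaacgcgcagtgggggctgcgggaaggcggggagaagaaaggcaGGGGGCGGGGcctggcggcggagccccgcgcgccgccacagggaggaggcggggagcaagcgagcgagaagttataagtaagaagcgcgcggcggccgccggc
Irf8, start 1, chr8:120736108-120736357, + strand: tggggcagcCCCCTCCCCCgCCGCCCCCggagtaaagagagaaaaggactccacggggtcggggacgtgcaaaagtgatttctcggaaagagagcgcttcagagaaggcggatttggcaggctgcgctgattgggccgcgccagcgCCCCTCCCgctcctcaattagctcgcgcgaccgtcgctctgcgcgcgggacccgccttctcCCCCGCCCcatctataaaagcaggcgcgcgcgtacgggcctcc
The printed windows are 4 of the 9, chosen after their matches were seen. Pparg start 1, not printed, held Kruppel-like matches and no other motif, and Irf8 start 2, not printed, held no match to any of the 6. The window of Pparg start 2 held a PU.1 core 240 bases before the start, and that of start 3 held C/EBP cores 215 and 16 bases before it. Deposited values are per gene, so they do not say which Pparg start was used. Counting 250 bases before to 50 after each start, the Kruppel-like motif was in 8 of the 9 windows and in 49.5% of 32851 promoter windows in the RefSeq table. This motif is rich in C, and the stretches before the 9 starts held 40.8% to 82.4% G and C. The 32851 windows were not matched for base composition, and some of the 9 belong to the same gene. The PU.1 core was in 1 of the 9 windows and in 28.3% of all windows, and the C/EBP core in 1 of the 9 and 10.8% of all. The joint ETS and IRF site, the interferon response core and the PPAR repeat were in 0 of the 9 windows and in 2.72%, 3.44% and 0.0396% of all windows. These matches describe letters in a window and not bound sites.

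Within each library the 7 genes can be set against their own sum, which does not change when all values of a library are multiplied by 1 factor. The sum was 1684 ± 117 FPKM in S100A4-positive and 320 ± 94.3 FPKM in S100A4-negative libraries (SD, n = 3 each). Spi1 took 37.2%, 46.7% and 38.4% of it in S100A4-positive libraries, against 22.5%, 21.4% and 18.5% in S100A4-negative libraries. Irf8 took 7.46%, 10.6% and 11.5% in S100A4-positive libraries, against 28.3%, 31.7% and 40.7% in S100A4-negative libraries. Spi1 led in each S100A4-positive library and Irf8 in each S100A4-negative library. Klf4 also held a smaller share in S100A4-positive libraries, 9.55% ± 1.64, against 17.3% ± 4.38 in S100A4-negative libraries. Pparg was at 4.66% ± 0.32 and 0.28% ± 0.13, and Irf5 at 19.3% ± 0.90 and 16.5% ± 1.83, in S100A4-positive and S100A4-negative libraries in turn. These 5 shares did not overlap between groups (p = 0.1 each by an exact two-sided permutation test, the least it can give, adjusted p = 0.14 over the 7 genes). The 7 shares of a library are parts of 1 sum, so a larger part for 1 gene lowers the others. They are not separate results, and no background over all genes applies to them. The shares of Cebpa, 2.41% ± 0.73 and 2.27% ± 0.10, and of Cebpb, 13.5% ± 4.23 and 9.22% ± 1.89, in S100A4-positive and S100A4-negative libraries, overlapped (exact permutation p = 1 and 0.3). The difference in the Cebpb share, 4.28 percentage points, was 2.59 without S100A4-positive replicate 1 and 6.65 without S100A4-positive replicate 2, and that in the Irf5 share, 2.73, was 1.77 without S100A4-negative replicate 1. The difference in the Cebpa share, 0.14, was -0.28 without S100A4-positive replicate 1.

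**Figure D4:**
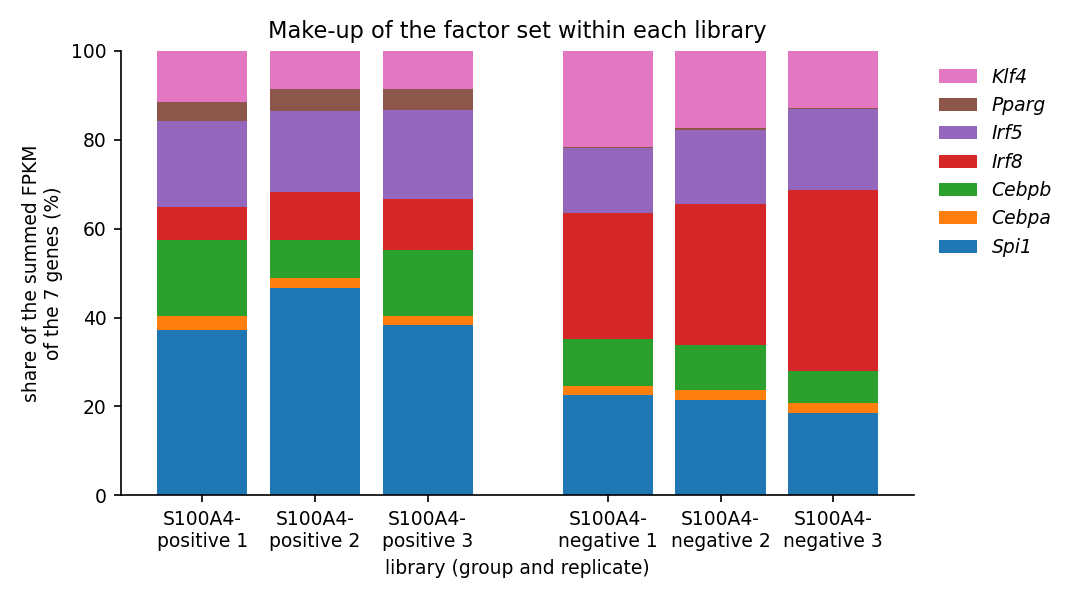
Stacked bars give each gene's share, in percent, of the summed FPKM of the 7 genes in each library, S100A4-positive libraries left. Spi1 at the base is the largest share in each S100A4-positive library, up to 46.7%, and Irf8 in each S100A4-negative library, up to 40.7%.

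The order of mean levels in S100A4-positive libraries was Spi1, Irf5, Cebpb, Irf8, Klf4, Pparg and Cebpa. Irf5 and Cebpb, Cebpb and Irf8, and Irf8 and Klf4 overlapped with their neighbour in this order. In S100A4-negative libraries the order was Irf8, Spi1, Irf5, Klf4, Cebpb, Cebpa and Pparg, with overlap between Irf8 and Spi1, Spi1 and Irf5, and Irf5 and Klf4. Ratios within a library, chosen after the levels were seen, restate the same values. The mean of Irf8 itself was not lower in S100A4-positive libraries, at 165 FPKM against 111 FPKM in S100A4-negative libraries. Irf5 was 2.60, 1.72 and 1.75 times Irf8 in S100A4-positive libraries, against 0.516, 0.527 and 0.449 times in S100A4-negative libraries. The Cebpa to Cebpb ratio did not separate the groups, at 0.193, 0.233 and 0.131 in S100A4-positive and 0.204, 0.235 and 0.327 in S100A4-negative libraries (exact permutation p = 0.2 over 9 ratios examined, adjusted p = 0.2).

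Relatives of the factors are given by family, beside 19.0% higher and 43.4% lower among all genes tested. The ETS, C/EBP, interferon regulatory factor and Kruppel-like lists lie nearer that background than the other nuclear receptors. Of these receptors 4 of 12 tested were higher and 1 lower. The C/EBP list also holds regulators of C/EBP proteins. Each family holds few genes, so the counts are not read as a result about a family. Median log2 fold changes of the first 4 lists and of other nuclear receptors lay between -0.34 and 0.04, against -0.36 for all genes. Each changed sign under at least 1 alternative. Of 12 ETS factors tested beside Spi1, 3 were higher and 5 lower, or 6 and 4 after median-of-ratios rescaling. Spic, the PU.1 relative of splenic red pulp macrophages, rose by 5.65 (SE 0.41) to 190, 358 and 301 FPKM in S100A4-positive libraries, against 2.02, 8.44 and 4.78 FPKM in S100A4-negative libraries. Ets2 rose by 1.78, and Ets1, an ETS factor of T cells, had a log2 fold change of -2.16. Spib, the PU.1 relative of B cells and plasmacytoid dendritic cells, fell by 1.14 with overlapping groups (adjusted p = 0.0471). Spi1 was 11.0 to 22.0 times Spib within S100A4-positive libraries and 0.477 to 1.02 times Spib within S100A4-negative libraries.

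Among 8 relatives and regulators of C/EBP proteins, 2 rose and 3 fell, beside 19.0% higher and 43.4% lower among all genes tested. Cebpd, an inflammation-induced member, rose to 11.4 ± 2.11 FPKM in S100A4-positive libraries (adjusted p = 4.23e-04), against 3.35 ± 0.52 FPKM in S100A4-negative libraries (SD, n = 3). Cebpe, the factor of late granulocyte maturation, fell by 1.24 to 1.57 ± 0.80 FPKM in S100A4-positive libraries, against 4.92 ± 0.67 FPKM in S100A4-negative libraries. Trib2, a pseudokinase that marks CEBPA for degradation, fell by 2.66 (SE 0.23) to 14.6 ± 0.32 FPKM in S100A4-positive libraries, against 102 ± 37.6 FPKM in S100A4-negative libraries. Its relative Trib1, with the same known action on CEBPA, rose by 0.96.

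Of the other interferon regulatory factors, 1 of 7 rose and 3 fell, near the 19.0% higher and 43.4% lower among all genes tested. Irf1, induced by interferon gamma, rose by 1.13 to 335 ± 58.9 FPKM in S100A4-positive libraries, against 151 ± 4.45 FPKM in S100A4-negative libraries. Irf4, the closest relative of Irf8 and a factor of activated lymphocytes and plasma cells, fell by 1.58 (SE 0.15) to 39.5 ± 5.22 FPKM in S100A4-positive libraries, against 120 ± 15.6 FPKM in S100A4-negative libraries. Within a library Irf8 was 3.61 to 5.38 times Irf4 in S100A4-positive and 0.602 to 1.24 times Irf4 in S100A4-negative libraries.

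Of 11 tested Kruppel-like relatives of Klf4, 2 were higher and 3 lower, beside 19.0% higher and 43.4% lower among all genes tested. Klf10 and Klf6 rose by 1.37 and 0.91. Klf2, the factor of resting and circulating T cells, fell by 1.08 to 119 ± 18.9 FPKM in S100A4-positive libraries, against 255 ± 65.0 FPKM in S100A4-negative libraries. Klf4 was 1.27 to 1.47 times Klf2 within S100A4-positive libraries and 0.144 to 0.258 times Klf2 within S100A4-negative ones. Among 12 tested nuclear receptors beside Pparg, 4 were higher and 1 lower, with the same background. Nr1h3, which encodes the oxysterol receptor LXR-alpha, rose by 3.96 (SE 0.28) to 71.3 ± 15.9 FPKM in S100A4-positive libraries, against 3.75 ± 1.65 FPKM in S100A4-negative libraries. The authors' deposited table does not list Klf2 as significant (adjusted p = 0.0942). Nr1d1 rose by 1.73 and Nr4a2 fell by 1.43. Rxra, which encodes an RXR partner of PPAR-gamma, rose by 1.32, far less than Pparg. Pparg was 1.31 to 2.49 times Rxra in S100A4-positive and 0.0214 to 0.0783 times Rxra in S100A4-negative libraries. Rxrb, another RXR gene, was not called, at 47.7 ± 8.28 FPKM in S100A4-positive and 52.7 ± 4.74 FPKM in S100A4-negative libraries. For the ratios named in these paragraphs other than that of Cebpa to Cebpb, the groups did not overlap (p = 0.1 by an exact two-sided permutation test, the least it can give, adjusted p = 0.1125 over 9 ratios).

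Of 21 other transcription factors of myeloid cells, 12 were higher and 4 lower, with a median log2 fold change of 0.68, or 0.45 without S100A4-positive replicate 3 and 1.05 after median-of-ratios rescaling. Tfec, a relative of the lysosomal factor TFEB, rose by 3.72, and Zeb2, a repressor of monocytes and effector lymphocytes, by 3.51. Zeb2 reached 367 ± 63.0 FPKM in S100A4-positive libraries, against 31.1 ± 0.574 FPKM in S100A4-negative libraries. Factors of lymphocytes went the other way, with 19 of 21 lower, 1 higher and a median of -1.68. Lef1, a factor of naive T cells, fell by 2.90, Eomes, a factor of cytotoxic T cells, by 2.89, and Bcl11b, the factor that commits cells to the T lineage, fell by 2.41. The member that rose was Id3, by 1.74. In the background, 19.0% of genes tested were higher and 43.4% were lower, but after median-of-ratios rescaling 3618 genes were higher and 3286 lower.

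Textbook targets of each factor were counted next, with several genes standing in more than 1 list. These counts, and those of the Toll-like receptor route below, stand beside 19.0% higher and 43.4% lower among all genes tested. Of 18 PU.1 targets 17 were higher and none lower, with a median of 2.64. Csf1r, which encodes the M-CSF receptor of macrophages, rose by 5.52 to 1271, 965 and 884 FPKM in S100A4-positive libraries, against 15.1, 33.8 and 19.0 FPKM in S100A4-negative libraries. Msr1, a scavenger receptor, rose by 4.68 and Cd68, a lysosomal protein of macrophages, by 4.23. The PU.1 target without a call was Btk, a kinase of B cells and myeloid cells, at 32.9 ± 5.15 FPKM in S100A4-positive and 30.4 ± 13.7 FPKM in S100A4-negative libraries (SD, n = 3).

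C/EBP targets went in both directions, with 5 of 14 higher and 7 lower, beside 19.0% higher and 43.4% lower among all genes tested. The list is short, so these counts are not read as a result about C/EBP targets. Those higher were Saa3, Lyz2 and Il1rn, by 3.41, 3.30 and 2.82, with Csf3r and Nr4a1. Those lower were granule and maturation genes of neutrophils, among them Ngp, Camp, Ltf and Lcn2 with log2 fold changes of -2.81, -2.69, -2.69 and -2.56. The list median was -1.01 and turned to 0.023 when only genes with a mean of at least 5 FPKM were kept. Beside this, 12 of 14 neutrophil markers were lower and 1 higher, and 6 of the lower ones also stand in the C/EBP list, and no neutrophil marker was at 0 in any library.

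IRF8 targets were mostly higher although Irf8 itself was not called, with 12 of 13 tested higher, none lower and a median of 2.31. Il12b, a subunit of interleukin 12, rose by 4.52, Cst3, a protease inhibitor abundant in dendritic cells, by 3.63, and Zeb2 as above. The list also holds Klf4, and shares Cybb and Ctss with the PU.1 list. Of 10 IRF5 targets 6 were higher, none lower and 4 not called, with a median of 2.64, and only 3 were called without S100A4-positive replicate 2. Tnf rose by 4.56 (SE 0.77) to 301, 1569 and 1680 FPKM in S100A4-positive libraries, against 16.0, 76.9 and 44.6 FPKM in S100A4-negative libraries. Within the S100A4-positive group Tnf was lowest in replicate 1. The summed level of the 10 targets was 1072, 5704 and 6040 FPKM in S100A4-positive libraries, against 1170, 1160 and 1265 FPKM in S100A4-negative libraries, so S100A4-positive replicate 1 lay below every S100A4-negative library in this sum. Such a sum is set mostly by the targets with the highest levels, and single targets went both ways in that library. Tnf and Il12b (20.4 FPKM) lay above every S100A4-negative library, where Il12b was at most 5.49 FPKM. Il6, at 1.90 FPKM, lay below every S100A4-negative library, the lowest being 7.81 FPKM. Ccl4, a chemokine, rose by 3.16, and lost its call without S100A4-positive replicate 2 (adjusted p = 0.0528).

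Upstream of IRF5, the Toll-like receptor route was higher in 9 of 15 genes and lower in 1, with a median of 1.27. Tlr8 and Tlr7, endosomal receptors for RNA, rose by 4.31 and 3.08, and Lyn, a kinase that restrains IRF5, by 1.93. Tlr8 reached 28.2 ± 5.61 FPKM in S100A4-positive libraries, against 0.475 ± 0.255 FPKM in S100A4-negative libraries. The shared kinases and adaptors Irak1, Traf6, Tab2, Ikbkb and Chuk, chosen after their values were seen, had log2 fold changes of -0.17, 0.12, 0.16, 0.24 and -0.21 and were not called.

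PPAR-gamma targets had the highest median of the target lists, 3.23, with 9 of 13 tested higher and none lower; without the filter on low values the median was 1.62. Plin2, which coats lipid droplets, rose by 4.67 to 577, 546 and 447 FPKM in S100A4-positive libraries, against 23.1, 20.3 and 15.9 FPKM in S100A4-negative libraries. Olr1, a receptor for oxidised lipoprotein, rose by 4.20 and Nr1h3 by 3.96. Fabp4 and Fabp5, fatty acid carriers, rose by 3.65 and 3.85. Angptl4, Cpt1a, Hilpda and Acadl were not called, with log2 fold changes of -0.39, 0.54, 0.48 and 0.07, and Pdk4 and Cidec were under the filter. Each target list stands beside the 18 of 19 macrophage markers that were higher, whose median was 3.09 and some of which, such as Csf1r, are also targets here, and their part in the target counts was not tested.

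**Figure D5:**
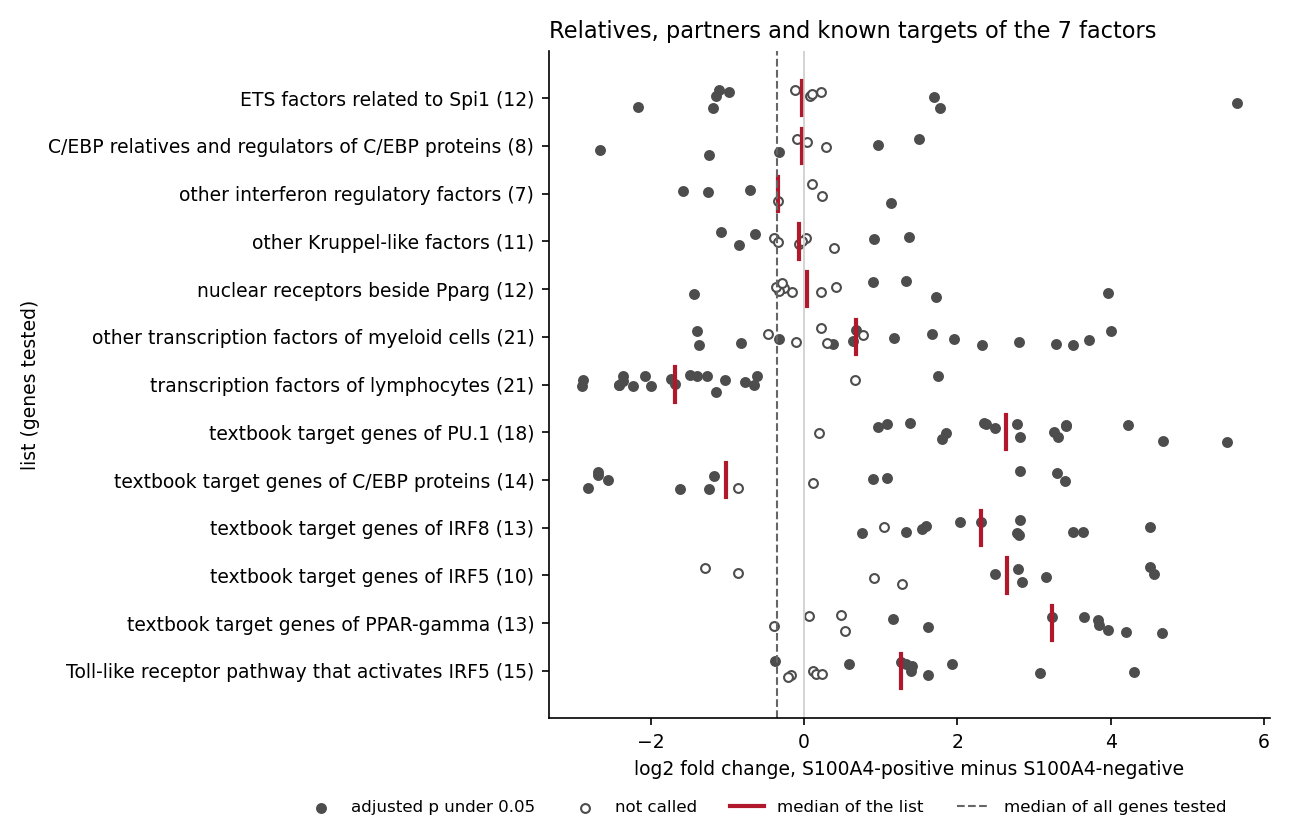
Each point is the log2 fold change of a tested gene (S100A4-positive minus S100A4-negative), filled where called, with the list median in red and the median of all genes tested, -0.36, dashed. Target lists of PU.1, IRF8, IRF5 and PPAR-gamma lie to the right with medians of 2.31 to 3.23, C/EBP targets split around -1.01, and the families of related factors spread to both sides.

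Genes whose profile over the 6 libraries lay nearest to each factor were found by the root mean square distance of log2(FPKM + 1) after centring each gene on its own mean. The libraries fall into 2 groups, so a small distance mostly reflects a like difference between them. Nearest to Spi1 were Tbc1d9 and Csf2ra, a subunit of the GM-CSF receptor, at distances of 0.103 and 0.104. Cebpa lay nearest to Asph and Tdrd7 (0.145 and 0.151), and Cebpb to Lipa, the lysosomal acid lipase, and Snx24 (0.122 and 0.123). Irf5 lay nearest to Lrp8 and Ctss, a protease of antigen-presenting cells (0.139 and 0.154). Pparg was nearest to Treml4, a receptor of splenic macrophages, and F10, coagulation factor X (0.182 and 0.208). Klf4 was nearest to Aldh3b1 and Bmpr2 (0.0673 and 0.0703). For Irf8 the nearest were H2-DMa, which loads peptides on MHC class II, and Spns3 (0.0897 and 0.127), and H2-DMa had 138 ± 28.0 FPKM in S100A4-positive and 89.8 ± 38.1 FPKM in S100A4-negative libraries (SD, n = 3).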

How the data were processed

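Polyadenylated RNA was sequenced from 3 S100A4-positive and 3 S100A4-negative libraries. FPKM values were deposited by the authors in 1 table, and HISAT2 2.1.0, Cufflinks, Cuffnorm and the build mm10 are named, per the submitters' processing notes, without roles. The counting tool and strand setting are not given in the sources used here. The authors' deposited comparison table holds, per the file headers, a mean normalized read count per group (a signal), a log2 fold change, a p-value and an adjusted p-value from a test that is not named. Columns were matched to samples by title.

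Whole reads were recovered from the deposited FPKM and group means: 100.0% of 135018 values above 0 lay within 0.02 of a whole number. Depth is in the report, and it limits precision mostly for Pparg in S100A4-negative libraries. The 13241 of 55951 genes whose mean reached 1 FPKM were tested on the log2(FPKM + 1) scale in limma 3.58.1 (R 4.3.3), whose prior variance followed the mean level, and p-values were adjusted by Benjamini-Hochberg. The labels give no batch. Gene positions came from GENCODE M21 (GRCm38). The 7 members and all gene lists were chosen with earlier results of these data known, so lists are given as counts and medians without a set test. Named are the 7 members, per list up to 3 called genes with the largest change, and per member the 2 nearest profiles (2 genes this rule names are not reported here); other list genes were chosen after their values were seen. Only the limma fit was tested on simulated data, in which few genes changed, equally in both directions. The real data differ from this setting, with 62.3% of genes called and most of those lower. The alternatives used a pseudocount of 0.1, a filter at 5 FPKM or none, scaling by median of ratios or by quantiles, no trend, the replicate block, voom on recovered reads and leaving out each library. Python 3.11.15, pandas 2.3.3 and matplotlib 3.10.9 were used otherwise.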

Additional observations from a re-analysis of the deposited data

How the results depend on the processing

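Over 14 alternatives, Spi1, Cebpa, Cebpb, Irf5, Pparg and Klf4 were called higher in every one, with the log2 fold change of Spi1 between 3.20 and 3.76 and that of Pparg between 5.16 and 6.54, so 6 or 7 of the 7 members were called. Irf8 was called in 3 of the 14, after median-of-ratios rescaling (1.03), without S100A4-negative replicate 3 (1.00) and with the replicate number as a block (0.66, adjusted p = 0.0231); its adjusted p ranged from 0.0210 to 0.319. Same-numbered libraries correlated at 0.376, 0.0830 and 0.366 in their deviations from the group means. For replicates 1 and 3 of each group the same number was the best match. S100A4-positive replicate 2 correlated better with S100A4-negative replicate 3 (0.146). These values do not settle whether the numbers are pairs, and the labels do not say, so the fit reported has no block. The replicate block called 8857 genes in all. Genes called numbered 8253 as reported and 6198 to 8916 over the alternatives (6881 to 8168 when 1 library was left out). The share of calls that were higher was 30.4% as reported, 52.4% by median of ratios and 42.0% by quantiles. The share of the factor sum taken by Cebpa, 0.142 percentage points higher in S100A4-positive libraries, was -0.28 without S100A4-positive replicate 1 and up to 0.375 without another library; the cause was not tested. Of 600 alternative values of 43 named genes none changed sign, 1 lost its call (Ccl4, without S100A4-positive replicate 2) and 3 gained one (Irf8). Of 336 alternative counts of called genes in lists, 14 moved by more than 1.5 times, 13 of them in lists of B cell, plasmacytoid dendritic cell, basophil and mast cell, eosinophil, and erythroid and platelet markers; the other was the IRF5 target list given above.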

Other observations

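Marker lists of further cell types gave these values, beside 19.0% higher and 43.4% lower among all genes tested. Each list is short, so the counts are not read as results about a cell type. Some of their genes, such as Irf4, Eomes and Tcf4, also stand in the lists of factors counted above. Of 8 plasma cell markers 7 were lower and 1 higher in S100A4-positive libraries, with a median log2 fold change of -1.74 and summed levels of 360 to 653 FPKM in S100A4-positive and 1332 to 2793 FPKM in S100A4-negative libraries. The marker that was higher was Prdm1, by 1.09, which encodes BLIMP1, a factor of plasma cells that macrophages and effector T cells also use. All 4 tested natural killer cell markers were lower (median -2.60), while Ncr1, Klra8 and Klra4 were under the filter.

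Of 6 basophil and mast cell markers 5 were lower and 1 higher; the one higher was Kit, at 34.3 ± 22.6 FPKM in S100A4-positive and 8.85 ± 2.88 FPKM in S100A4-negative libraries with overlapping groups. Of 6 plasmacytoid dendritic cell markers, a cell type that depends on Irf8, 1 was higher, 1 lower and 4 not called, with a summed level of 142 to 155 FPKM in S100A4-positive and 126 to 196 FPKM in S100A4-negative libraries. Of 4 eosinophil markers tested 1 was higher and 2 lower, and the eosinophil, basophil and plasmacytoid counts changed when single libraries were left out (the lowest were 1 of 4, 2 of 6 and 1 of 6 called). Of 4 erythroid and platelet markers 1 was lower and none was higher. Ly6c2, which is abundant in classical monocytes, was the macrophage-list marker without a call, at 91.7 ± 28.1 FPKM in S100A4-positive and 116 ± 26.4 FPKM in S100A4-negative libraries (SD, n = 3).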
